A study of Homo sapiens with 39 samples.

Results

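Clones 4.1 and 4.2 are derivatives of A375, an established human melanoma cell line, and both carry a deletion of R4, an enhancer region of SOX10. They were compared with each other here because they share a labelled genotype, so neither side of the comparison is labelled as free of the deletion. A difference may come from the clone or from how its cells were grown, which cannot be told apart here. The members were chosen by their sample titles: 4 RNA-seq libraries of clone 4.1 and 3 of clone 4.2, which is 7 of the 39 libraries in the series. The same fit also used the other A375 groups, which were 4 libraries of wild-type cells (WT) and 3 and 4 libraries of the clones 1.1 and 1.2, in which R1, another enhancer region of SOX10, was deleted. Polyadenylated RNA was measured, and every level below is in TPM, the length-corrected share of a library that comes from a gene, scaled so that each library has the same total. Each group other than WT is 1 clone, so its libraries repeat that clone. The labels do not say whether the libraries came from separate cultures, and p-values therefore measure the spread between libraries, which may be technical. The labels also do not say whether the deletion affected every copy of the region.

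SOX10 is a transcription factor of the neural crest that maintains melanocyte identity and drives MITF and pigment genes. A clone grows from a single cell, so it inherits whatever chromosome changes, DNA methylation and promoter choices that cell had. Genes whose state is set stochastically and then passed on, such as clustered protocadherins and cancer-testis antigens, are known to vary between clones of a tumour line, and melanoma lines are known to carry unstable karyotypes.

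The 7 libraries were first described by what moved among replicates. The share of TPM from mitochondrial genes ran from 0.968% to 4.42% in clone 4.1 and from 1.56% to 2.78% in clone 4.2. The summed level of 94 S-phase and G2/M genes was 6093, 2568, 4338 and 8365 TPM in replicates 1 to 4 of clone 4.1 and 6352, 11459 and 10256 TPM in replicates 1 to 3 of clone 4.2. The highest library of clone 4.1 exceeded the lowest of clone 4.2, and the WT libraries spanned 2535 to 10195 TPM, about the whole range of the 7. Because this cell cycle level differed as much within WT as between the clones, a second fit was made in which it was a term, an alternative chosen after the data were seen. Pearson's r of log2(TPM + 1) across genes was 0.945 to 0.984 between libraries of clone 4.1, 0.969 to 0.985 between libraries of clone 4.2 and 0.908 to 0.979 between the clones. Of the markers of other cell types, 6 of 8 leukocyte, 5 of 6 endothelial, 4 of 8 fibroblast and 4 of 8 epithelial markers stayed under 1 TPM in all 7 libraries. Others were well above that in clones 4.1 and 4.2. KRT18 averaged 299 and 302 TPM, KRT8 52.7 and 27.9 TPM, and CLDN4 12.9 and 11.2 TPM. CD68 averaged 52.9 and 35.4 TPM, and LYZ 5.61 and 9.12 TPM. Of the melanocytic markers, SOX10, MITF, S100B and PAX3 were present, whereas TYR, DCT and MLANA stayed under 1 TPM and PMEL reached at most 1.38 TPM, so most pigment genes were near 0 in cells labelled as melanoma.

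SOX10 was measured at 876, 774, 711 and 746 TPM in clone 4.1 and at 647, 541 and 488 TPM in clone 4.2. Every library of clone 4.1 was above every library of clone 4.2, and the WT mean lay between at 682 ± 35.6 TPM (SD, n = 4). The log2 difference of 0.48 (SE 0.16) did not pass the test across all genes (limma, Benjamini-Hochberg adjusted p = 0.103), and it was 0.35 with the cell cycle level as a term. MITF, the master regulator of melanocytes, averaged 16.6 ± 1.22 TPM (SD, n = 4) in clone 4.1 and 11.3 ± 3.68 TPM (SD, n = 3) in clone 4.2, with an adjusted p of 0.114 in limma. EDNRB, an endothelin receptor of melanoblasts, averaged 47.0 TPM and 19.2 TPM, with an adjusted p of 0.114 in limma and libraries that overlapped. Of the 24 melanocytic genes listed, 11 could be tested and 0 passed in limma, 5 of them with an unadjusted p under 0.05, beside 22.3% of all genes tested. Their median log2 difference was 0.43, beside −0.07 over all 16692 genes tested. Of 21 tested genes around SOX10 on chromosome 22, 0 passed both thresholds in limma and 8 had an unadjusted p under 0.05, beside the same 22.3%. The neighbour MICALL1 (chr22:37905657-37942822), an endosome tubulation protein, averaged 54.4 TPM and 93.2 TPM, a log2 difference of −0.78 that passed the adjusted p alone (limma, 0.042).

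In all, 373 of 16692 genes differed between the clones, which is 2.23% (limma on log2(TPM + 1), adjusted p under 0.05 and a log2 difference of at least 1 in size). Of these, 214 genes (1.28%) were higher in clone 4.1 and 159 (0.953%) were higher in clone 4.2. The libraries of the clones did not overlap for 367 of the 373, which follows largely from the thresholds that chose them. Of all tested genes, 17.3% did not overlap. With the cell cycle level as a term 226 genes passed (1.35%), 188 of them among the 373, and every one of the 373 kept its sign. For scale, the same thresholds gave 1028 genes (6.16%) between the R1 clones 1.1 and 1.2. That count and the 373 were not tested against each other.

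The number depended on single libraries and on the setting. It was 699 without replicate 1 of clone 4.2, 625 without replicate 4 of clone 4.1 and 129 without replicate 3 of clone 4.2, and it was 239, 203 and 197 without replicates 1, 2 and 3 of clone 4.1 and 165 without replicate 2 of clone 4.2. It was 48 within the libraries of low mitochondrial share, 197 with the 2 clones fitted alone and 200 among genes with a mean of at least 5 TPM.

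The largest difference among genes higher in clone 4.1 was that of SOD3. SOD3 (chr4:24789912-24800842), the extracellular superoxide dismutase, was at 202, 609, 314 and 132 TPM in clone 4.1 and at 26.9, 15.7 and 3.70 TPM in clone 4.2. All 4 libraries of the first were above all 3 of the second, with a log2 difference of 4.37 (SE 0.82, adjusted p = 0.00701 in limma). WT libraries spread from 35.4 to 274 TPM, across the gap between the clones, and the difference was 3.17 with the cell cycle term. The call of SOD3 did not hold under every left-out library.

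VGF, a granin-like neuropeptide precursor, was the most abundant of the leading genes, at 3687, 3841, 4633 and 2416 TPM in clone 4.1 and 1108, 340.1 and 72.1 TPM in clone 4.2. It reached a log2 difference of 3.55 (SE 0.92, adjusted p = 0.0389 in limma), and with the cell cycle term its adjusted p was 0.131.

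BGN, which encodes the matrix proteoglycan biglycan, averaged 53.8 TPM and 3.26 TPM. ACAN, which encodes aggrecan, a proteoglycan of cartilage, averaged 32.0 TPM and 2.44 TPM. RXRG, a retinoid X receptor used as a marker of the neural crest-like melanoma state, was nearly the same in the 4 libraries of clone 4.1 (38.3, 40.5, 41 and 42.3 TPM) and low in clone 4.2 (6.58, 4.46 and 1.84 TPM). Its log2 difference was 3.08 (SE 0.39, adjusted p = 0.000189 in limma) and WT was close to clone 4.1 at 33.8 ± 12.9 TPM (SD, n = 4).

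ABCA8, a lipid transporter, and FAM20A, a pseudokinase of the secretory pathway, lie close together on the long arm of chromosome 17 (chr17:68867292-68955392 and chr17:68535113-68601389). ABCA8 was at 3.83 to 19.2 TPM in clone 4.1 and at 0 to 0.081 TPM in clone 4.2, and FAM20A at 3.78 to 24.1 TPM and 0.153 to 0.865 TPM. The remaining genes of this group were CDC42EP5, an effector of the GTPase CDC42 (24.7 TPM and 1.95 TPM), ST8SIA5, a sialyltransferase of gangliosides (15.3 TPM and 1.18 TPM), and the antisense transcript TMEM132D-AS1 (27.2 TPM and 1.22 TPM).

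Genes higher in clone 4.2 held several that were nearly silent in clone 4.1. DKK1, a secreted inhibitor of WNT signalling, was at 0.516, 0.306, 0.174 and 4.42 TPM in clone 4.1 and at 10.04, 48.3 and 80.9 TPM in clone 4.2. The groups did not overlap and the log2 difference was −4.23 (SE 1.07, adjusted p = 0.036 in limma), but WT itself ran from 2.60 to 77.4 TPM and the adjusted p was 0.0639 with the cell cycle term.

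Other genes were set apart with little spread. MIR4527HG, the host transcript of a microRNA (chr18:47285725-47594550), was at 0, 0.205, 0.244 and 0.232 TPM in clone 4.1 and at 19.4, 16.5 and 20.5 TPM in clone 4.2. Its log2 difference of −4.08 (SE 0.24, adjusted p = 1.03e-07 in limma) was −4.31 with the cell cycle term. LRFN5, a synaptic adhesion protein, averaged 0.0187 TPM and 10.9 TPM, and PCDH15, a cadherin of sensory hair cells, averaged 0.316 TPM and 9.0 TPM. Both were low in WT, at 0.690 ± 0.312 and 0.904 ± 0.244 TPM (SD, n = 4).

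The rest of this group averaged more in clone 4.2 as follows. GDA, guanine deaminase, averaged 26.3 TPM against 0.716 TPM in clone 4.1. AP1M2, an epithelial clathrin adaptor subunit, averaged 12.1 TPM against 0.414 TPM. KRT14, a keratin of basal epithelium, averaged 21.2 TPM against 2.75 TPM, while EPCAM, CDH1 and KRT19 stayed under 1 TPM in every library and the summed epithelial markers, mostly KRT18, ranged from 297 to 502 TPM in clone 4.1 and from 342 to 402 TPM in clone 4.2. SPRR2D, of the cornified envelope, averaged 38.2 TPM against 6.16 TPM. NEFL, the neurofilament light chain, averaged 38.0 TPM against 6.56 TPM. CYB5R2, a cytochrome b5 reductase, averaged 17.4 TPM against 1.90 TPM, and ESM1, an endothelial proteoglycan, 6.57 TPM against 0.0170 TPM. RNU1-1, a U1 small nuclear RNA with near-identical copies and no poly(A) tail, averaged 8.89 TPM against 0.184 TPM, and its assignment is uncertain.

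**Figure D1:**
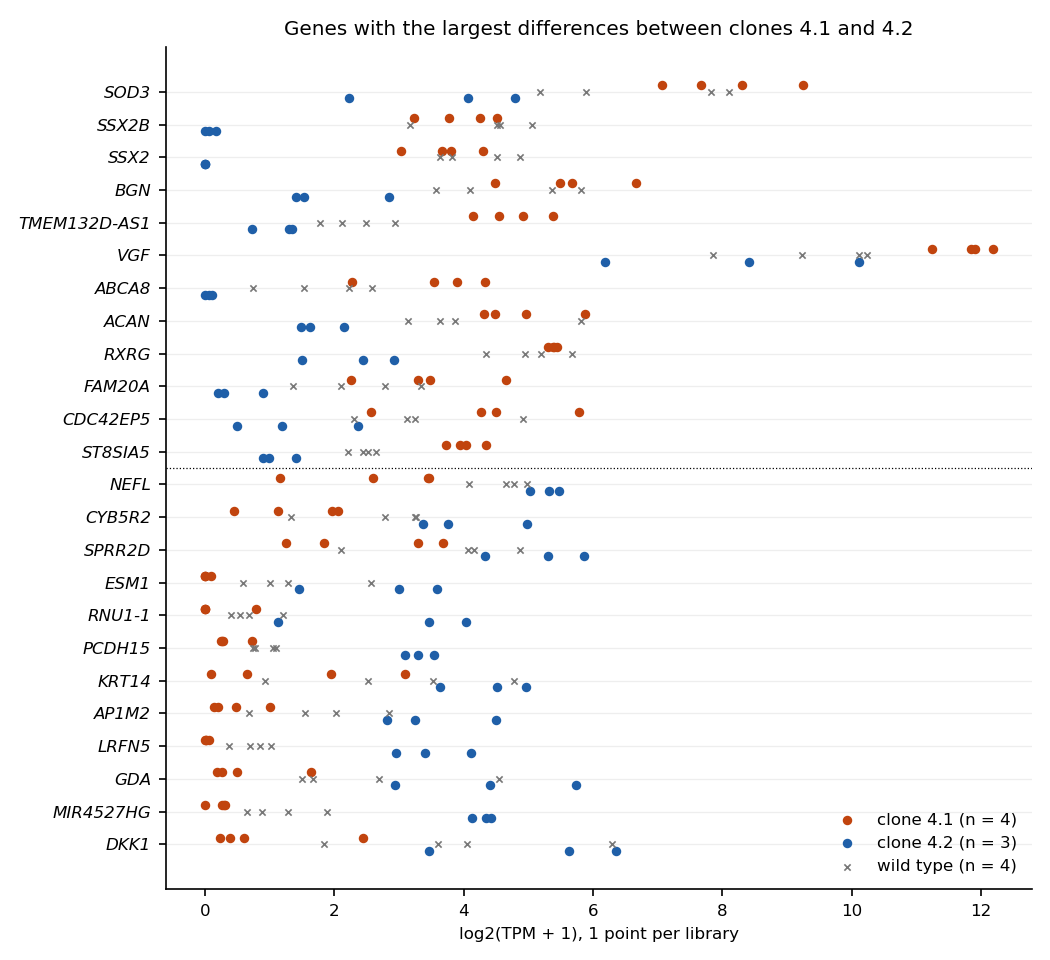
Level of the 24 genes that the naming rule picked, as log2(TPM + 1) on the horizontal axis, 1 point per library; circles are clones 4.1 (n = 4) and 4.2 (n = 3), crosses are WT (n = 4). The 12 genes above the dotted line were higher in clone 4.1 and the 12 below it in clone 4.2, and WT libraries of SOD3 and DKK1 spread across much of the distance between the clones.

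The cell cycle level of each library was set beside these genes. In clone 4.1, replicate 4 had the highest cell cycle level and the highest DKK1 (4.42 TPM), and replicate 2 had the lowest and the highest SOD3 (609 TPM). In WT, replicate 4 had the highest cell cycle level and DKK1 at 77.4 TPM, and replicate 2 the lowest cell cycle level and DKK1 at 2.60 TPM. The order was not kept everywhere. In clone 4.2, replicate 2 had the highest cell cycle level but replicate 3 the highest DKK1, and in clone 4.1 DKK1 was lowest in replicate 3. SOD3, VGF, DKK1, MIR4527HG, PCDH15 and MAGEA1 did not overlap between the clones, whose cell cycle levels did overlap. The naming rule required no overlap of the 24 genes, so its absence does not tell them apart. The part of the cell cycle level in each gene's difference was not tested beyond the fit that holds it as a term. Of the 24 genes, VGF, DKK1, GDA, ESM1 and SPRR2D missed the threshold in that fit, with adjusted p of 0.131, 0.0639, 0.0535, 0.165 and 0.0535 in limma.

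**Figure D2:**
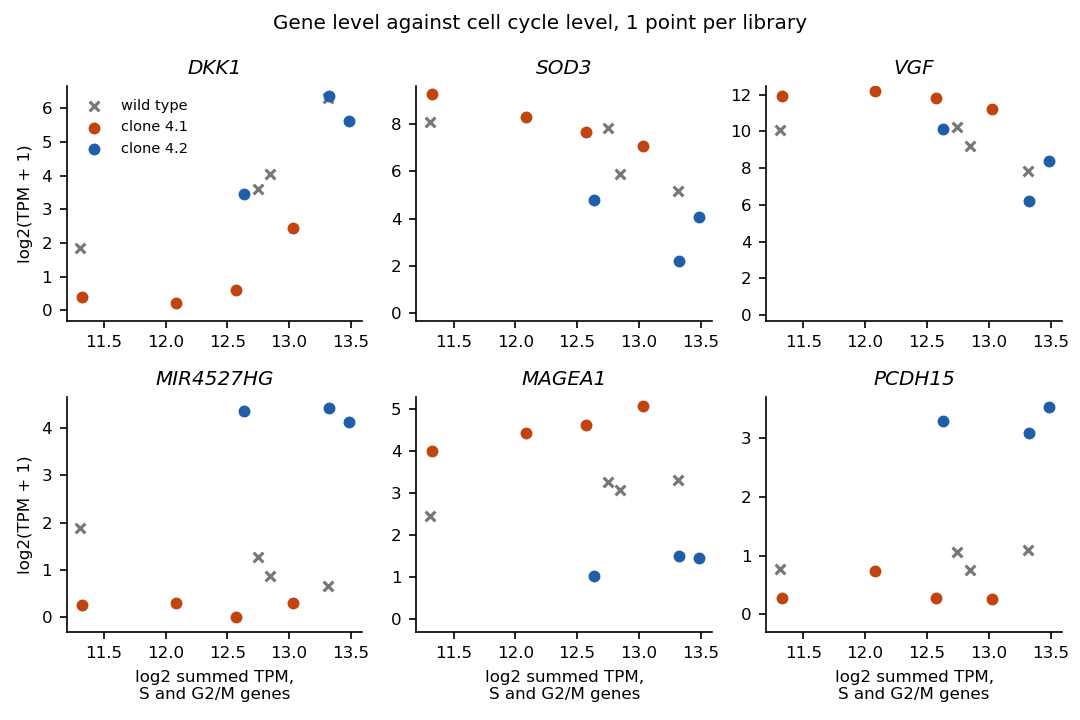
Level of 6 genes as log2(TPM + 1) against the log2 summed TPM of the S and G2/M genes, 1 point per library of WT (crosses), clone 4.1 and clone 4.2 (circles). In WT, DKK1 was highest (77.4 TPM) and SOD3 lowest (35.4 TPM) in the library with the highest cell cycle level, and all 6 genes lay at separate levels in the clones.

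Calls were counted by chromosome. Chromosome 17 held 33 genes higher in clone 4.2 and 6 higher in clone 4.1 of 1024 tested, and chromosome 15 held 22 higher in clone 4.1 and 3 higher in clone 4.2 of 572 tested. These are 3.81% and 4.37%, beside 2.23% of all genes, and chromosomes X and 5 had similar shares of 3.65% and 3.55%. The median log2 difference was −0.18 on chromosome 17 and 0.13 on chromosome 15, where all genes had −0.07. Over the 7 libraries the exact two-sided permutation p was 0.0286 for chromosome 17, the smallest that 35 splits allow, and 0.0571 for chromosome 15, and both were 0.329 after Benjamini-Hochberg adjustment over 23 chromosomes. Chromosomes 16, 10 and 11 also had medians past 0.1 in size, at −0.15, −0.10 and −0.10, which were −0.07, −0.00367 and −0.02 with the cell cycle term.

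Along chromosome 17 the lower genes lay at the end of the short arm. Genes that start before 19 Mb had a median log2 difference of −0.58 (274 genes tested), and the 750 genes after it had −0.10. The edge was placed after the values were seen, and the medians are therefore a description with no test. Of the 274 genes, 227 were lower in clone 4.1 and 30 passed the test as lower (10.9%, beside 0.953% of all genes). In that stretch 0 genes passed as higher. With the cell cycle term 11 genes passed as lower, 10 of them among the 30. The median deviation of these genes from the mean of the 7 libraries was −0.27 to −0.19 in the libraries of clone 4.1 and 0.22 to 0.37 in those of clone 4.2. Set against WT, clone 4.1 had a median of −0.50 here, clone 4.2 of 0.08, clone 1.1 of 0.03 and clone 1.2 of 0.11, all from the same WT libraries. The median held at −0.55 with the cell cycle term, a ratio to clone 4.2 of 0.685 on the TPM + 1 scale.

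Single genes of this stretch were as follows. ELP5, a subunit of the Elongator complex (chr17:7251416-7259940), was at 28.9, 31, 33.3 and 45.7 TPM in clone 4.1 and 76.6, 112 and 109 TPM in clone 4.2, with a log2 difference of −1.49 (SE 0.26, adjusted p = 0.00377 in limma). MRM3, a methyltransferase of mitochondrial ribosomal RNA (chr17:782273-792509), averaged 14.1 ± 0.875 TPM (SD, n = 4) and 31.6 ± 6.45 TPM (SD, n = 3). RPA1, the large subunit of the single-strand DNA binding complex, averaged 58.5 TPM and 122 TPM, and C1QBP, a mitochondrial matrix protein, 311 TPM and 720.4 TPM. PIMREG, a mitotic regulator, averaged 8.01 TPM and 34.2 TPM, and MPRIP, which ties myosin phosphatase to actin, 85.7 TPM and 192 TPM. RPA1, C1QBP, PIMREG and MPRIP were picked from the 30 after their values were seen. MRM3, RPA1, C1QBP and MPRIP with the cell cycle term had log2 differences of −0.85, −0.76, −0.76 and −0.91, under the minimum, while ELP5 and PIMREG passed.

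MAP2K4, on the same stretch, a kinase upstream of JNK, averaged 9.27 TPM and 18.2 TPM and passed the adjusted p alone (log2 difference −0.92, adjusted p = 0.00803 in limma). Just outside the stretch, EPN2, an endocytic adaptor (chr17:19215615-19336715), was higher in clone 4.1 instead, at 60.1, 48.8, 48.1 and 40.5 TPM against 23.1, 16.6 and 14.1 TPM.

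Along chromosome 15 the shift ran from about 50 Mb to the end of the long arm and was upward. The 380 genes of this stretch had a median log2 difference of 0.27, and 0.33 with the cell cycle term, a ratio to clone 4.2 of 1.26 on the TPM + 1 scale. The 192 genes before it had −0.14. In the stretch 287 genes were higher in clone 4.1, 20 passed as higher and 1 as lower (5.53% in all, beside 2.23% of all genes). Of these, 8 of the 20 and NEO1 also passed with the cell cycle term. Set against WT, clone 4.1 had a median of 0.32, clone 4.2 of 0.02, clone 1.1 of −0.02 and clone 1.2 of 0.07. DNA copy number was not measured in these files, and its part in either shift was not tested.

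A few genes of the chromosome 15 stretch differed by far more than its median. ABHD2, a serine hydrolase that responds to progesterone (chr15:89087459-89202360), was at 148, 185, 158 and 150.4 TPM in clone 4.1 and 54.9, 38.9 and 37.8 TPM in clone 4.2, a log2 difference of 1.86 (SE 0.21, adjusted p = 6.19e-05 in limma). SEMA7A, a membrane semaphorin, averaged 47.4 TPM and 17.3 TPM. CEMIP, which depolymerizes hyaluronan, averaged 406 TPM and 75.5 TPM, and ALDH1A3, the enzyme of retinoic acid synthesis that marks one melanoma subpopulation, 1085 TPM and 471 TPM. STRA6, the retinol transporter, averaged 204 TPM and 55.6 TPM, and NTRK3, a neurotrophin receptor, 3.69 TPM and 0.0607 TPM. CEMIP and STRA6 missed the threshold with the cell cycle term (adjusted p of 0.0632 and 0.0965 in limma). IGF1R averaged 148 TPM and 106 TPM and did not pass (adjusted p = 0.243 in limma). The 1 gene of the stretch that passed as lower was NEO1, the netrin receptor neogenin, at 1.05, 1.3, 1.19 and 1.80 TPM in clone 4.1 and 6.54, 5.47 and 4.66 TPM in clone 4.2. CEMIP, ALDH1A3, STRA6, NTRK3, NEO1, IGF1R and MAP2K4 were chosen after their values were seen.

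**Figure D3:**
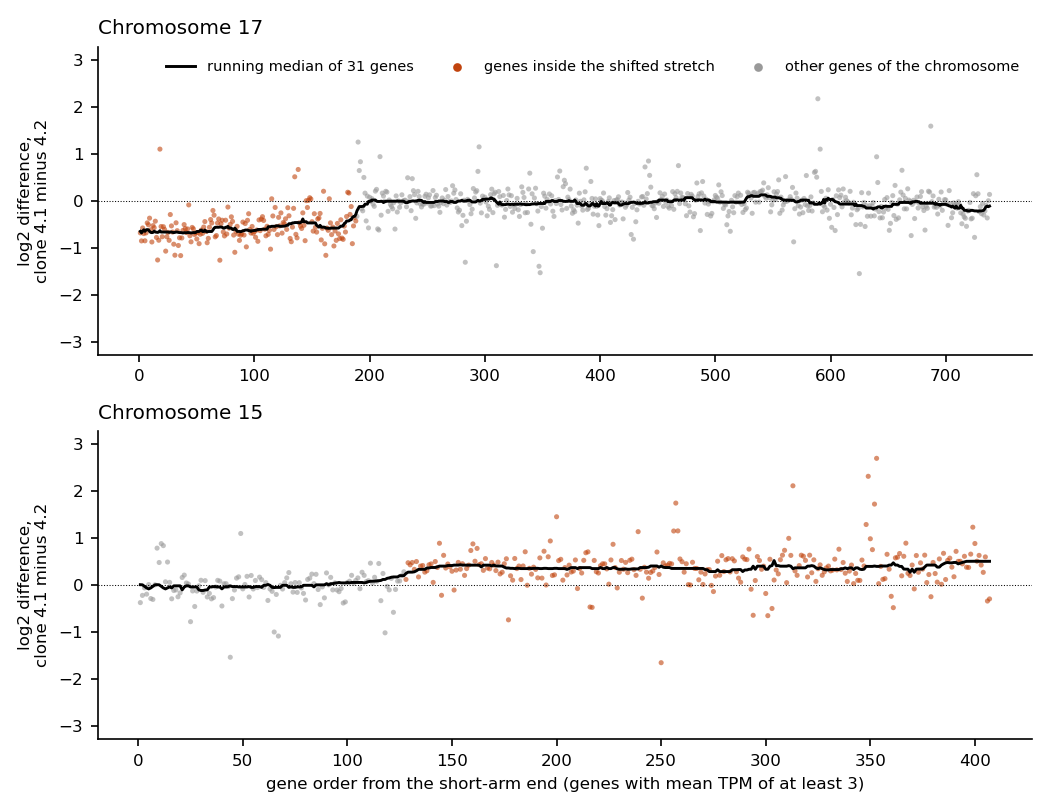
Log2 difference between clones 4.1 and 4.2 of each gene, from the fit with the cell cycle level as a term, in order along chromosomes 17 and 15 from the short-arm end; only genes with a mean of at least 3 TPM are drawn, orange points are genes inside the shifted stretches and the black line is a running median of 31 genes. The line lies below 0 for the first part of chromosome 17 and returns to 0, and lies above 0 for the last part of chromosome 15.

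Clustered protocadherins are adhesion proteins of neurons that are encoded in tandem on chromosome 5, and each cell uses a few of their promoters, chosen stochastically and kept through DNA methylation. Of 54 listed genes 42 were tested, and 4 passed, all higher in clone 4.1 (9.52%, beside 2.23% of all genes). All 4 belong to the gamma cluster. PCDHGB5 (chr5:141397987-141512979) was at 5.16, 4.56, 3.72 and 3.72 TPM in clone 4.1 and 0.278, 0.0370 and 0.0190 TPM in clone 4.2. It was present in one clone and nearly absent in the other, with a log2 difference of 2.25 (SE 0.26, adjusted p = 6.41e-05 in limma), and WT had 4.12 ± 1.34 TPM (SD, n = 4). PCDHGA2 averaged 2.60 TPM and 0.351 TPM, PCDHGB2 5.20 TPM and 1.06 TPM, and PCDHGA12 2.75 TPM and 0.692 TPM. The gamma genes share their last exons, so the authors' counting could split reads between them and the single-gene values are uncertain. The median of the 42 tested genes was 0.41, and 0.24 with the cell cycle term, and 35 of the 42 were higher in clone 4.1.

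The promoters of 3 of these 4 genes were available in the RefSeq promoter table (GRCh38.p14), and they are shown because a short run of bases recurs in them. One run of 8 bases, CGCTGTTG, was present in the 250 bases before the RefSeq start of all 3, and it is printed in capitals within the surrounding upstream sequence, on the plus strand from 5′ to 3′.
PCDHGA2 at chr5:141338679-141338759: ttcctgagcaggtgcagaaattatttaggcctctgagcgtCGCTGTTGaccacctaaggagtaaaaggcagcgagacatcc
PCDHGB2 at chr5:141359897-141359984: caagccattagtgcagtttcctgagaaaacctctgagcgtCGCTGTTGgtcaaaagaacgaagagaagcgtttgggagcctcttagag
PCDHGB5 at chr5:141397839-141397926: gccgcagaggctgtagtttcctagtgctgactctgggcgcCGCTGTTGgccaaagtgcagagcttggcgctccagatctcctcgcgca
The run ended 33, 191 and 60 bases before the RefSeq start of PCDHGA2, PCDHGB2 and PCDHGB5. Protocadherin promoters are known to share a conserved element that contains CGCT and is bound by CTCF. Searched on both strands, CGCTGTTG was found in the upstream 250 bases of 8 of 20 gamma genes with a window, 5 of which did not pass the test or were not tested, and in 0.586% of 27305 promoters of all genes. The run was chosen from the genes that passed, so its recurrence is a description.

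**Figure D4:**
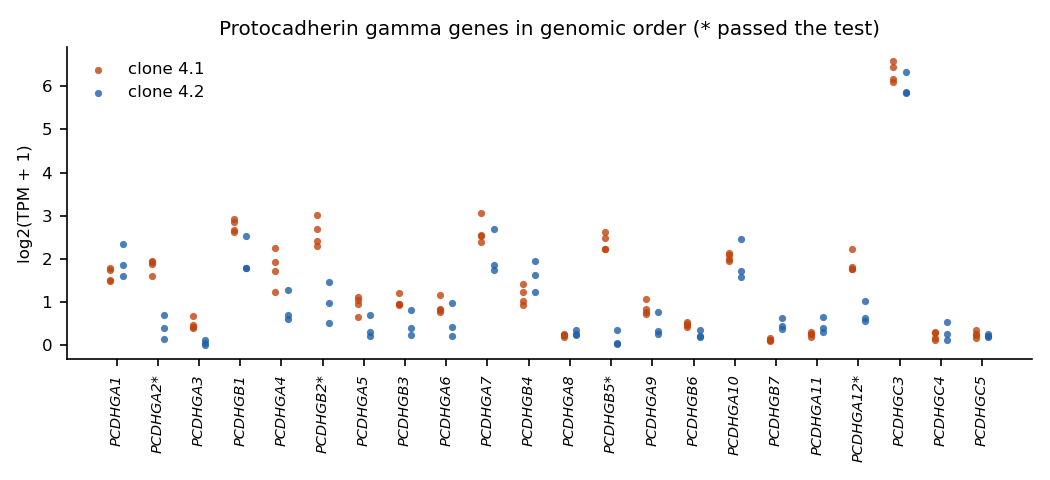
Level of the 22 protocadherin gamma genes as log2(TPM + 1) in genomic order, 1 point per library of clone 4.1 (n = 4) and clone 4.2 (n = 3); asterisks mark the 4 genes that passed the test. PCDHGB5 is near 0 in clone 4.2 and above 2 in all libraries of clone 4.1, while PCDHGC3, the most abundant gene of the cluster, overlaps between the clones.

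Cancer-testis genes are germline genes, many of them on the X chromosome, that tumours can express. Of 110 listed, 48 were tested and 4 were higher in clone 4.1, with 0 lower (8.33%, beside 2.23% of all genes). The direction holds for the listed genes only. VCX2, VCX and MAGEE1, outside the list, were also called, and their called transcripts were lower in clone 4.1. VCX2-201 averaged 1.04 TPM and 6.58 TPM, VCX-203 0.966 TPM and 5.19 TPM, and MAGEE1-201 0.329 TPM and 1.66 TPM. MAGEA1 (chrX:153179285-153183880) was at 23.8, 15.2, 20.6 and 33.0 TPM in clone 4.1 and 1.02, 1.73 and 1.85 TPM in clone 4.2. SSX2 was at 7.15 to 18.7 TPM in clone 4.1 and was listed at 0 in all 3 libraries of clone 4.2, and its near-identical copy SSX2B was at 8.44 to 22 TPM and 0 to 0.122 TPM. Reads of these copies may be split, so the pair is one observation. GAGE12H, also one of several near-identical copies, averaged 8.72 TPM and 0.447 TPM. The median of the 48 tested members was 0.05, beside −0.07 over all genes. WT had 18.7 ± 7.83 TPM of SSX2 (SD, n = 4), above clone 4.1 on average, and 7.37 ± 2.05 TPM of MAGEA1 (SD, n = 4), between the clones.

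Imprinted, HOX and zinc finger genes were also listed. Among 16 tested imprinted genes (6.25% called, beside 2.23% of all genes), SNRPN on chromosome 15, which lies outside the shifted stretch, averaged 193 TPM and 95.9 TPM and passed (log2 difference 1.05, adjusted p = 0.0175 in limma). Its neighbour SNHG14 averaged 70.9 TPM and 38.2 TPM and MEST averaged 4.85 TPM and 9.60 TPM, both past the adjusted p alone. Among 32 HOX genes (3.13% called), HOXB9 averaged 28.6 TPM and 11.4 TPM and passed, and HOXA5 averaged 31.2 TPM and 16.1 TPM, past the adjusted p alone. SNRPN and HOXB9 with the cell cycle term fell under the minimum difference, at 0.79 and 0.75. Of 468 tested zinc finger genes 5 were higher in clone 4.1 and 1 in clone 4.2 (1.28%, beside 2.23% of all genes). The 4 with the smallest p were ZNF853 (27.0 TPM and 3.64 TPM), ZNF92 (19.6 TPM and 8.35 TPM), ZNF239 (2.03 TPM and 0.403 TPM) and ZNF835 (1.47 TPM and 0.0863 TPM). ZNF835 fell to 0.96 with the cell cycle term.

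Genes of antigen presentation passed in 1 direction, higher in clone 4.1. Class II molecules present extracellular peptides and are expressed by some melanomas. Of 12 tested class II genes, 1 passed both thresholds (8.33%, beside 2.23% of all genes) and 6, that gene included, passed the adjusted p alone (3.95% of all genes), all higher in clone 4.1, and the median was 0.65, or 0.71 with the cell cycle term. With that term 3 of the 12 passed both thresholds as higher in clone 4.1, beside 1.35% of all genes in either direction. HLA-DQA2, outside the list, was also called, and its transcript HLA-DQA2-210 averaged 29.4 TPM and 5.36 TPM. HLA-DQA1 was at 80.8, 58.8, 67.7 and 80.1 TPM in clone 4.1 and at 14, 12.2 and 7.84 TPM in clone 4.2, a log2 difference of 2.59 (SE 0.31, adjusted p = 0.000115 in limma). HLA-DRB1 averaged 392 TPM and 193 TPM, HLA-DRB5 249 TPM and 122 TPM, and HLA-DPB1 145 TPM and 91.8 TPM. Summed class II TPM was 3419 to 5980 in clone 4.1, 2593 to 3185 in clone 4.2 and 3540.4 to 3889 in WT.

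Class I molecules present peptides from inside the cell. Of 13 tested class I genes, HLA-B (716 TPM and 229 TPM) and HLA-C (517 TPM and 224 TPM) passed (15.4%, beside 2.23% of all genes), with log2 differences of 1.67 and 1.23 and adjusted p of 0.0217 and 0.0343 in limma. With the cell cycle term HLA-C missed the threshold (adjusted p = 0.0708 in limma). B2M, the light chain of class I, averaged 1189 TPM and 846 TPM and did not pass (adjusted p = 0.0719 in limma). HLA genes are near-identical in parts, so their single values are uncertain.

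Of 28 tested interferon-stimulated genes 0 passed both thresholds in limma, 10 had an unadjusted p under 0.05 (22.3% of all genes did), and the median was 0.10. The list did not hold every such gene, and IFITM1, which is outside it and given below, passed as higher in clone 4.1. OAS1, a sensor of double-stranded RNA, was at 8.58 ± 0.578 TPM (SD, n = 4) in clone 4.1 and 15.4 ± 1.46 TPM (SD, n = 3) in clone 4.2, past the adjusted p alone. Of 23 inflammatory genes, LIF, a cytokine of the interleukin-6 family, passed at 54.7 TPM and 19.2 TPM, with WT at 18 TPM. That is 4.35% of the list, beside 2.23% of all genes.

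Of 18 tested neural crest genes, 2 were higher in clone 4.1 (RXRG and SNAI2) and 2 in clone 4.2 (L1CAM and TFAP2A), which is 22.2%, beside 2.23% of all genes. The median was 0.16, and SNAI2 missed the threshold with the cell cycle term (adjusted p = 0.113 in limma). L1CAM, an adhesion molecule of neurons and invasive tumours, was at 7.45, 5.16, 4.91 and 8.49 TPM in clone 4.1 and at 25.0, 38.2 and 52.0 TPM in clone 4.2. Its log2 difference was −2.36 (SE 0.31, adjusted p = 0.000395 in limma). TFAP2A, a transcription factor that acts with SOX10 and MITF, was steady within each clone, at 6.30 ± 0.664 TPM (SD, n = 4) and 14.2 ± 0.954 TPM (SD, n = 3). SNAI2, a repressor of epithelial genes, averaged 6.46 TPM and 2.61 TPM, and NCAM1 0.985 TPM and 2.28 TPM, the latter past the adjusted p alone. SNAI2, and SEMA3A below, were named after their values were seen.

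Genes of the undifferentiated state gave 0 calls in limma among 21 tested, with 9 at an unadjusted p under 0.05 (22.3% of all genes) and a median of −0.20. Members near the threshold pointed both ways: ZEB1 averaged 39.3 TPM and 21.5 TPM (adjusted p = 0.0525 in limma), while FOSL1 averaged 134 TPM and 424 TPM and FN1, fibronectin, 25.5 TPM and 102 TPM. With the cell cycle term FN1 passed, at a log2 difference of −2.93 and an adjusted p of 0.0257 in limma.

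The lists of matrix and adhesion genes held calls in both directions: 20.8% of collagen genes, 6.45% of integrin and laminin genes and 8% of matrix proteases and inhibitors, beside 2.23% of all genes. Of 24 tested collagen genes, COL19A1 (37.8 TPM and 16.5 TPM) and COL22A1 (1.57 TPM and 0.0770 TPM) were among the 3 higher in clone 4.1, and COL6A3 (3.04 TPM and 13.0 TPM) and COL12A1 (1.66 TPM and 7.79 TPM) were the 2 higher in clone 4.2. Of 31 integrin and laminin genes, ITGA9 was higher in clone 4.1 (19.2 TPM and 2.98 TPM) and ITGAE, on the shifted stretch of chromosome 17, was higher in clone 4.2 (9.80 TPM and 26.3 TPM). Of 25 matrix proteases and inhibitors, ADAMTS1 averaged 7.54 TPM and 1.94 TPM, and TIMP3, an inhibitor of matrix proteases, 317 TPM and 785 TPM. PDGFRA, a fibroblast marker, also passed at 2.37 TPM and 0.607 TPM. COL19A1, TIMP3 and PDGFRA with the cell cycle term fell under the minimum difference, at 0.85, −0.98 and 0.93. The other fibroblast markers tested, COL1A1, DCN and LUM, did not pass, and the summed fibroblast markers were 3.37 to 6.45 TPM in clone 4.1 and 3.36 to 5.84 TPM in clone 4.2.

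Of 49 tested axon guidance genes, 5 were higher and 1 was lower in clone 4.1 (12.2%, beside 2.23% of all genes). SEMA3G, a secreted semaphorin, was at 18.8, 20, 13.7 and 15.5 TPM in clone 4.1 and at 3.56, 2.11 and 1.86 TPM in clone 4.2, with WT at 3.08 ± 0.870 TPM (SD, n = 4), near clone 4.2. ROBO2, a SLIT receptor, averaged 5.36 TPM and 0.500 TPM, with WT at 4.86 ± 2.14 TPM (SD, n = 4), near clone 4.1. SEMA3A averaged 47.0 TPM and 17.4 TPM and fell to 0.87 with the cell cycle term, SEMA7A is given above, and EPHA7, an ephrin receptor, was lower in clone 4.1 at 0.231 TPM and 2.14 TPM.

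The signalling lists had 1 or 2 calls each, which is 5% of ERK, 7.14% of TGF-beta and BMP, 4% of WNT and 4.35% of AP-1 and YAP genes, beside 2.23% of all genes. Of 20 genes that read out ERK activity, EGR1 passed at 92.7 TPM and 20.3 TPM, and DUSP5, an ERK phosphatase, averaged 24 TPM and 12.4 TPM and passed the adjusted p alone (0.00467 in limma). Of 28 genes of TGF-beta and BMP signalling, BMP4 was higher in clone 4.1 (6.19 TPM and 1.64 TPM), and ID2, a target of BMP signalling, was lower (3.56 TPM and 12.7 TPM). Of 25 WNT genes DKK1 was the 1 call, lost with the cell cycle term as given above, and the receptor FZD1 averaged 24.5 TPM and 14.3 TPM, past the adjusted p alone. Of 23 AP-1 and YAP genes AMOTL2 passed, at 15.1 TPM and 47.7 TPM, while CCN2 averaged 11 TPM and 49.4 TPM and did not (adjusted p = 0.115 in limma). EGR1, AMOTL2, ITGA9 and ITGAE missed a threshold with the cell cycle term, at log2 differences of 1.31, −1.08, 1.48 and −0.79 in place of 2.10, −1.62, 2.51 and −1.36.

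Of 16 S100 and galectin genes, S100A3 and S100P were lower in clone 4.1 (14.1 TPM and 57.7 TPM, 0.186 TPM and 2.54 TPM) and LGALS7B, which has a near-identical copy, was higher (5.36 TPM and 1.2 TPM), 18.8% of the list beside 2.23% of all genes. S100P and LGALS7B missed the threshold with the cell cycle term (adjusted p of 0.0559 and 0.137 in limma). Among 80 ribosomal protein genes RPL4 passed (1.25% of the list, under the share of all genes), at 4905 TPM and 2350.0 TPM, and its log2 difference of 1.05 fell to 0.69 with the cell cycle term. It lies on the shifted stretch of chromosome 15, while the median of the list was 0.28, and 0.06 with the cell cycle term.

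The cell cycle lists had negative differences that did not pass the test. All 42 S-phase genes and 51 of 52 G2/M genes had a negative difference, with medians of −0.84 and −0.69, and 0 passed in limma, with 9 S-phase and 5 G2/M genes at an unadjusted p under 0.05, shares no higher than the 22.3% of all genes. The medians were −0.02 and 0.10 with the cell cycle term, which these genes define. AURKB, a mitotic kinase encoded on the shifted stretch of chromosome 17, averaged 42.6 TPM and 128 TPM, and its log2 difference of −1.63 was −0.72 in that fit, past the adjusted p alone (0.00231 in limma).

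In limma 0 genes passed both thresholds among 26 hypoxia and glycolysis, 25 stress response, 23 sterol, 6 IGF binding protein, 46 histone, 15 mitochondrial and 3 metallothionein genes. At an unadjusted p under 0.05 these lists held 3, 8, 5, 3, 8, 0 and 0 genes, beside 22.3% of all genes. The hypoxia list had a median of 0.64 that was −0.18 with the cell cycle term. In the stress list DNAJB9, a chaperone of the endoplasmic reticulum, averaged 13.9 TPM and 6.57 TPM, and IGFBP2 averaged 56.0 TPM and 96.2 TPM, each past the adjusted p alone.

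**Figure D5:**
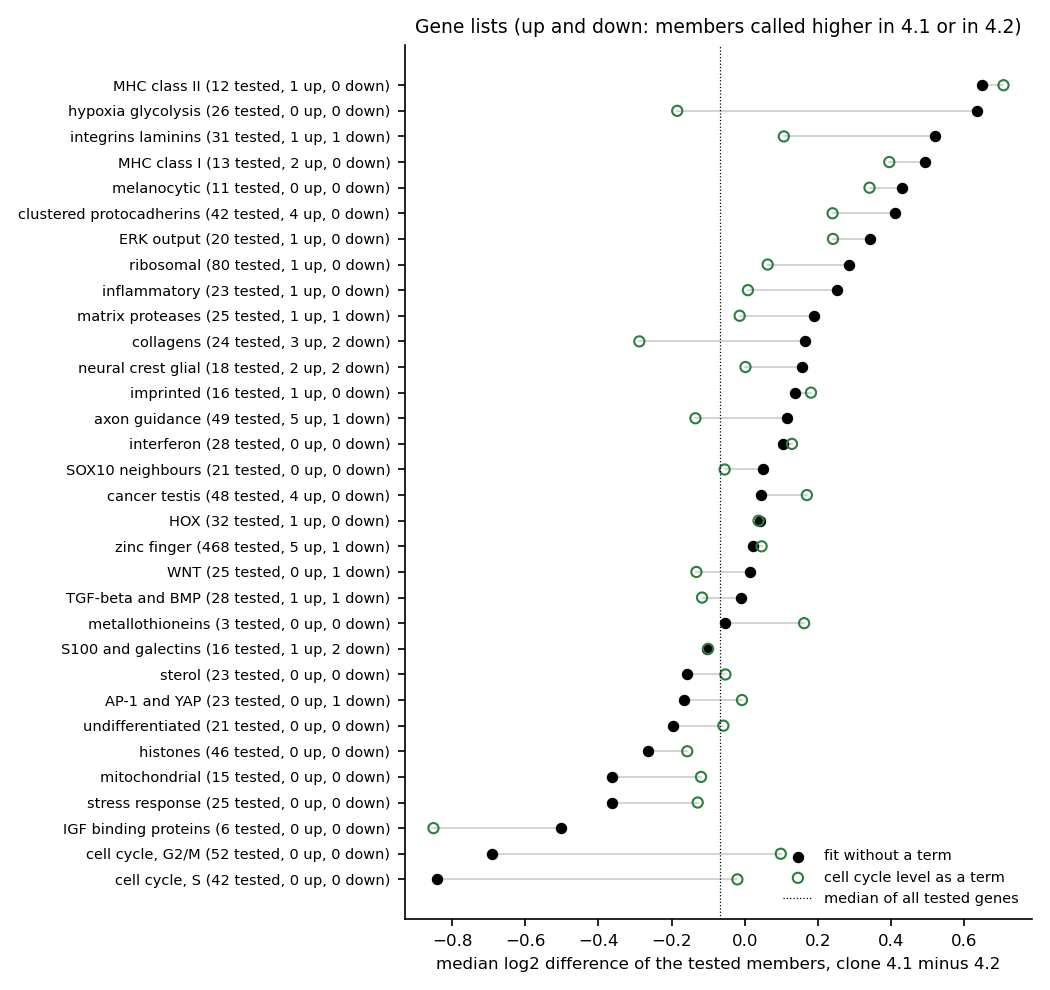
Median log2 difference between clones 4.1 and 4.2 of the tested members of each gene list, from the main fit (filled) and from the fit with the cell cycle level as a term (open); the dotted line is the median of all tested genes, −0.07, and the labels give members tested and called higher in clone 4.1 (up) or in clone 4.2 (down). The cell cycle, hypoxia and collagen lists moved most between the fits, while both MHC lists stayed above 0.3.

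On the chromosomes with medians past 0.1, further genes were named by rule. HTRA1, a secreted serine protease on chromosome 10, was at 236, 183, 262 and 207 TPM in clone 4.1 and at 68.7, 32.0 and 17.4 TPM in clone 4.2, a log2 difference of 2.67 (SE 0.47, adjusted p = 0.00397 in limma). C10orf90 averaged 38.6 TPM and 14.3 TPM, TMEM179B 145 TPM and 73.8 TPM, and IFITM1, an antiviral membrane protein, 28.4 TPM and 4.76 TPM. On chromosome 16, VAC14, a scaffold of lipid kinases, was lower in clone 4.1 (19.7 TPM and 40.4 TPM), and NDRG4 (27.4 TPM and 10.6 TPM) and CDH13, a truncated cadherin (124 TPM and 49.8 TPM), were higher. C10orf90, TMEM179B, VAC14 and CDH13 with the cell cycle term fell under the minimum difference, at 0.88, 0.70, −0.75 and 0.85.

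The other A375 groups were then set beside these genes. For 343 of the 373 genes the WT mean lay between the clones, nearer to clone 4.1 for 173 and nearer to clone 4.2 for 200. The 373 were chosen for the gap between the clones, which favours a further group lying between them. Shares over all tested genes were not computed. The mean of clone 1.1 was nearer to clone 4.2 for 309 of the 373 and that of clone 1.2 for 263. The mean cell cycle level was 5341 TPM in clone 4.1, 9355 in clone 4.2, 8969 in clone 1.1 and 7463 in clone 1.2. Its part in these counts was not tested. Against WT, 109 genes passed in clone 4.1 (0.653%) and 79 in clone 4.2 (0.473%), and 59 and 42 of these were among the 373. Both contrasts use the same 4 WT libraries, and each shares its clone's libraries with the comparison that gave the 373. The overlaps of 59 and 42 are therefore partly built in and are a description.

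In 4 genes the clones departed from WT in opposite ways, each past the test. PPP4R3C, a regulatory subunit of protein phosphatase 4 expressed from the X chromosome (chrX:27460211-27463341), was listed at 0 in all 4 libraries of clone 4.1 and at 3.58, 4.62 and 5.13 TPM in clone 4.2, with WT at 1.51 ± 0.360 TPM (SD, n = 4). MAGEA1, ST8SIA5 and TRIM51 were higher than WT in clone 4.1 and lower in clone 4.2. TRIM51 averaged 9.34 TPM, 0.523 TPM and 3.46 TPM in clone 4.1, clone 4.2 and WT.

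At the level of transcripts 178 of 55502 differed (0.321%, limma as for genes), 109 higher in clone 4.1 and 69 in clone 4.2. They came from 155 genes, 114 of which had passed at gene level. ELP5 was the only gene with transcripts that passed in both directions. ELP5-212 was listed at 0 in all 4 libraries of clone 4.1 and averaged 37.5 ± 7.74 TPM (SD, n = 3) in clone 4.2 and 30.0 ± 13.9 TPM (SD, n = 4) in WT, with an adjusted p of 7.38e-05 in limma. ELP5-201 averaged 8.89 ± 3.45 TPM (SD, n = 4) in clone 4.1, 0.106 ± 0.184 TPM (SD, n = 3) in clone 4.2 and 1.2 ± 1.4 TPM (SD, n = 4) in WT, with an adjusted p of 0.0423 in limma. The gene lies on the shifted stretch of chromosome 17. For SOX10 the main transcript, SOX10-202, averaged 576 ± 54.3 TPM (SD, n = 4) and 374 ± 55.7 TPM (SD, n = 3), and none of its transcripts passed. Transcript levels are estimates that divide shared reads, and their error is not given in the files.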

How the data were processed

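Total RNA was poly(A)-selected and reverse transcribed with random hexamers, per the labels' protocols. The submitters' processing notes name DRAGEN and GRCh38, and the annotation and settings are not given in the sources used here. The authors deposited 1 gene table and 1 transcript table in TPM. Gene TPM summed to 999999.9 to 1000000.1 in each A375 library, so read depth is unknown and no counting interval was computed. A gene at 0 TPM is called listed at 0. Each table repeats some identifiers with identical values (200 genes and 1123 transcripts), which were used once, and holds 6 columns that match no sample and were not used.

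Libraries were grouped by title. Values were analysed as log2(TPM + 1), which understates changes of low genes, with limma 3.58.1 in R 4.3.3 on all 18 A375 libraries, with a variance trend, both directions tested together and Benjamini-Hochberg adjustment over the genes that reached 1 TPM in 3 or more of them. A gene passed, or was called, at an adjusted p under 0.05 and a log2 difference (clone 4.1 minus 4.2) of at least 1 in size. The fit was tested on simulated data. No label says what a shared replicate number means, so the numbers were not used in the main fit.

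Gene positions (GRCh38) were looked up in GENCODE 29, where 58453 of 60671 genes were found. Promoters are from RefSeq (GRCh38.p14). Named genes are SOX10; the 12 largest differences each way among called genes with at least 5 TPM in the higher clone, no overlap and at most 2 from 1 gene family; up to 4 genes per list by smallest p; up to 3 called genes of at least 20 TPM on chromosomes with a median of at least 0.1 in size; genes called against WT in opposite ways; and genes with transcripts called in opposite ways. Where more were named, the text says so, and some genes that the rule names are not reported here. The groups, the lists and the naming rule were chosen with earlier results of these data known. Alternatives were the pseudocount, filter, scaling, variance trend, samples fitted, mitochondrial share, each library left out and, added later, the cell cycle level.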

Additional observations from a re-analysis of the deposited data

Results flagged for a closer look

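In 125 groups of 4 values from clone 4.1, 16 had 1 library farther from the others than Dixon's 95% critical value for 4 samples. Chance gives about 1 in 20 for independent, normally distributed values. These groups are mostly named genes in TPM from the same 4 libraries, so the 16 cannot be set against that rate. MIR4527HG, PCDH15, ESM1 and RNU1-1 were nearly silent in clone 4.1. Replicate 2 stood apart for HLA-B (gap over range 0.967), summed MHC class I (0.863), EGR1 (0.864), FN1 (0.871) and RNU1-1 (1), and it also had the lowest cell cycle level. Replicate 4, with the highest cell cycle level, stood apart for DKK1 (0.919), GDA (0.865), ZEB1 (0.889) and SNRPN (0.893). Replicate 3 stood apart for the mitochondrial share (0.891), PCDH15 (0.946) and ESM1 (1), and replicate 1 for IGF1R (0.982), PCDHGA12 (0.922), MIR4527HG (0.840) and BMP4 (0.830).

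The clones differed from WT in opposite ways in 4 genes, and the difference between the clones was itself tested. It was 3.22 for MAGEA1, 2.91 for ST8SIA5, 2.77 for TRIM51 and −2.43 for PPP4R3C on the log2(TPM + 1) scale.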

How the results depend on the processing

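The count of 373 genes was 355 to 471 with the mitochondrial set as a term, no variance trend, quantile normalization, median-of-ratios scaling or a pseudocount of 0.1. It was 200 with a mean TPM of at least 5, 219 without a filter, 197 with clones 4.1 and 4.2 fitted alone, 48 within the libraries of low mitochondrial share (4.1 replicates 1, 2 and 4 against 4.2 replicates 1 and 3), 226 with the cell cycle level as a term and 659 with no minimum difference. Leaving out single libraries gave 129 to 699. With the replicate number as a block, in the fit of the 7 libraries alone, 0 genes were called by limma and 4235 had an unadjusted p under 0.05. The deviations of same-numbered libraries of clones 4.1 and 4.2 had r of 0.02, −0.35 and −0.09 for numbers 1, 2 and 3. Pairs of other numbers ran from −0.57 (4.1 replicate 4, 4.2 replicate 1) to 0.47 (4.1 replicate 2, 4.2 replicate 1). In WT and clone 4.1 alike, the cell cycle level was lowest in replicate 2 and highest in replicate 4. Their mitochondrial share was high only in replicate 3 (4.92% and 4.42%). Whether a number marks a shared batch was not tested, and the comparisons with WT were not paired by number. Transcripts numbered 105 with a mean TPM of at least 5, beside 178.

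The SOX10 difference stayed positive and not called in every alternative run, from 0.35 to 0.61. The chromosome 17 median was −0.12 with median-of-ratios scaling, and its distal short arm had −0.67 with a pseudocount of 0.1 and −0.67 with a mean TPM of at least 5, and −0.51 with median-of-ratios scaling. The chromosome 15 median was 0.20 with median-of-ratios scaling and 0.21 with the cell cycle term, and its distal long arm had 0.36 with a pseudocount of 0.1, 0.34 with median-of-ratios scaling and 0.33 with the cell cycle term. Chromosome 11 had −0.0301 with median-of-ratios scaling and −0.0211 with the cell cycle term, chromosome 10 had −0.00367 and chromosome 16 had −0.0725 with that term. The cause of these moves was not tested.

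Of 87 called genes followed by name, 37 stayed called under each left-out library, among them MIR4527HG, LRFN5, PCDH15, MAGEA1, RXRG, PCDHGB5, HLA-DQA1, ABHD2, ELP5 and EPN2. SOD3, VGF and DKK1, which had some of the largest differences, were not among the 37. Read depth is unknown, so low values have no counting error here.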
